A study of Mus musculus with 18 samples.

Results

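Atf4 and Cebpg are the genes that were targeted in this study, and both were among the 14695 genes of the deposited count table, so 2 of 2 were measured. They were taken by name and are described across all 6 groups of the experiment. The samples were primary mouse CD8+ T cells, taken from lymph node and spleen and edited with CRISPR/Cas9 at 1 of 3 targets. The 6 groups were Cebpg KO with halofuginone, Cebpg KO untreated, Atf4 KO with halofuginone, Atf4 KO untreated, Rosa26 with halofuginone and Rosa26 untreated, with 3 libraries of poly-A RNA in each. Rosa26 is a neutral locus, so the Rosa26 cells carried the editing without loss of either factor, and all 6 groups had been through CRISPR targeting. Exposure to halofuginone, an inhibitor of prolyl-tRNA synthetase, lasted 24 hours. The sources used here do not give the strain, sex and age of the mice, the guides, the drug dose, the share of edited alleles or whether replicates were separate animals. The p-values therefore measure only the spread between these samples, which may be technical.

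ATF4 is a basic leucine zipper (bZIP) transcription factor at the centre of the integrated stress response. Uncharged tRNA or other stress activates kinases that phosphorylate the initiation factor eIF2, which slows general translation and lets ribosomes pass short upstream reading frames to reach the Atf4 coding sequence, so that ATF4 protein is known to be controlled largely in translation. C/EBPγ, the product of Cebpg, is a bZIP protein that lacks a strong activation domain of its own, forms heterodimers with ATF4 and binds with it at composite sites near amino acid synthesis genes. Counts of mRNA show neither the protein nor its activity.

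On the GRCm38 build (GENCODE M21), Atf4 (ENSMUSG00000042406.9) lay on chromosome 15 from 80255184 to 80257541 on the plus strand. It had 3 annotated transcripts, and the longest held 3 exons and 1725 bases, of which 1047 in 2 exons were coding (349 codons). Upstream of that coding sequence, 594 bases held 3 reading frames that began with ATG: 36, 3 and 59 codons long, the last of which overlapped the start of the coding sequence. Cebpg (ENSMUSG00000056216.10) lay on chromosome 7 from 35046422 to 35056573 on the minus strand, with 4 annotated transcripts. Its longest transcript had 2 exons and 4709 bases, with the 450 coding bases (150 codons) in 1 exon, and its 294 bases before the coding sequence held a single upstream frame of 1 codon. The authors' build was GRCm39, so these positions describe the annotation and not the deposited counts.

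The 250 bases before the RefSeq start of each gene are shown as a description of the loci (RefSeq, GRCm38.p6; Atf4 at chr15:80254934-80255183 on the plus strand, Cebpg at chr7:35056567-35056816 on the minus strand, both 5′ to 3′, with motif matches in capitals). Any part of these sequences in the drug response was not tested. The RefSeq start of Cebpg differs from the GENCODE start given above, so the Cebpg window includes the first bases of the GENCODE gene.
Atf4 promoter: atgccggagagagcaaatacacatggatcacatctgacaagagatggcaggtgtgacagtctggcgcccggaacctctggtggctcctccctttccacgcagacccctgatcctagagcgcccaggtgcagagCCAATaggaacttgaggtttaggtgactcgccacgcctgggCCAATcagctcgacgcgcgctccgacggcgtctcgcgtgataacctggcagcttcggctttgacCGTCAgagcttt
Cebpg promoter: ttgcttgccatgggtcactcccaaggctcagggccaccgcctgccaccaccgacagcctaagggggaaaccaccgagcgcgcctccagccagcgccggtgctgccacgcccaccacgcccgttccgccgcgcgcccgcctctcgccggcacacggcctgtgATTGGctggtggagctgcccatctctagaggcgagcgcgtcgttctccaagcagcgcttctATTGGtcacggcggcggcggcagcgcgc
Both strands were searched for 6 motifs. The motif CCAAT, a general promoter element, was found at 2 places in each window. In Atf4 it was read on the printed strand at 117 to 113 and at 76 to 72 bases before the start, and in Cebpg on the other strand (capitals ATTGG) at 89 to 85 and at 28 to 24. The short cAMP-response motif TGACG occurred in the Atf4 window at 12 to 8 bases before the start, on the other strand (capitals CGTCA), and not in the Cebpg window. Neither window held TGATGNAA (the C/EBP-ATF composite form), TGACGTCA, which contains TGACG, TTGCGCAA or the GC box GGGCGG. Of 32851 windows of this length, 33.8% held CCAAT, 17.8% TGACG, 3.45% TGATGNAA, 1.55% TGACGTCA, 0.164% TTGCGCAA and 32.7% GGGCGG. Bases G and C made up 59.2% of the Atf4 window and 70.8% of the Cebpg window. A match is a string of letters and not a shown binding site.

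Depth and cell identity were as follows. The libraries held 14.2 to 20.3 M counts, and levels are given as CPM (counts scaled to library size after TMM scaling, with factors from 0.909 to 1.09). The CD8 T cell list held Cd8a, Cd8b1 and the general T cell markers Cd3e, Cd3d, Cd3g and Thy1. All were measured (6 of 6) and summed to 2630 to 3617 CPM per library. Of other cell types, the CD4 list (2 of 3 measured, Zbtb7b and Foxp3) summed to 8.19 to 36.3 CPM, the B cell list (2 of 4) to 3.18 to 7.65 CPM and the myeloid list (1 of 5, Cd68) to 2.24 to 6.87 CPM, while no NK (0 of 2) or erythroid (0 of 2) marker was in the table. The 3 libraries Cebpg KO with halofuginone replicate 3, Atf4 KO with halofuginone replicate 3 and Rosa26 with halofuginone replicate 2 each had the lowest level of their own treated group for Malat1, a nuclear noncoding RNA, and are called low-Malat1 libraries in that sense. Malat1 was at 1960, 1158 and 672 CPM in those 3 libraries, against 2074 to 3580 CPM in the other 6 treated ones. Untreated libraries ran from 2026 to 2607 CPM in both knockouts and from 858 to 1168 CPM in Rosa26, so the Cebpg KO library at 1960 CPM was close to the lowest of the other treated libraries and above all untreated Rosa26 ones. Results are given with and without these 3 libraries where they differ.

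Both targeted mRNAs were present in all 18 libraries, including those of their own knockouts. Over the 18 libraries Atf4 averaged 307 CPM, above 96.4% of the 14695 genes, and Cebpg 95.6 CPM, above 83.6%. Per kb of annotated exon (2.36 kb for Atf4 and 5.62 kb for Cebpg) the means were 130 and 17.0 CPM per kb, above 98.1% and 78.4% of the 14333 genes with a length. Counts per library were 4097 to 7375 for Atf4 and 798 to 3500 for Cebpg. Editing by small insertions or deletions need not change the count of a gene, so neither level checks the genotype labels, and in bulk RNA fewer cells with a transcript and less of it per cell cannot be told apart.

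Atf4, in order of replicate number, stood at 300.4, 299.8 and 346 CPM in Cebpg KO cells with halofuginone and at 286, 273 and 277 CPM in untreated Cebpg KO cells. In Atf4 KO cells it was 300.1, 267 and 378 CPM with halofuginone and 301, 281 and 274 CPM untreated. In Rosa26 cells it was 357, 428 and 351 CPM with halofuginone and 281, 267 and 256 CPM untreated. Treated libraries lay above all untreated ones of their genotype in Rosa26 and Cebpg KO cells, whereas treated and untreated Atf4 KO libraries overlapped. In each treated group the highest Atf4 value came from the library with the lowest Malat1. Without those 3 libraries the treated means were 300.1 CPM in Cebpg KO, 283 CPM in Atf4 KO and 354 CPM in Rosa26 cells (2 libraries each). Within groups the deviations of Atf4 and Malat1 correlated at r = -0.91. Leaving out these 3 libraries also removes the highest Atf4 value of each treated group and so narrows the spread of Atf4. Small p-values for Atf4 without them, given below, are therefore not separate support. The part of low Malat1 in the level of Atf4 was not tested.

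Cebpg stood at 93.4, 104 and 105 CPM in Cebpg KO cells with halofuginone and at 56.7, 58.5 and 53.9 CPM in untreated Cebpg KO cells. In Atf4 KO cells it was 132, 123 and 137 CPM with halofuginone and 59.8, 58.0 and 58.8 CPM untreated. In Rosa26 cells it was 169, 183 and 167 CPM with halofuginone and 52.8, 55.1 and 53.0 CPM untreated. The 3 treated groups did not overlap with each other or with any untreated group, while the 3 untreated groups lay between 52.8 and 59.8 CPM. Without the 3 low-Malat1 libraries the treated means were 98.7, 127 and 168 CPM in Cebpg KO, Atf4 KO and Rosa26 cells, in the same order as with them. Those libraries also held the highest Cebpg value of each treated group, so leaving them out drops those values too. Within groups the deviations of Cebpg and Malat1 correlated at r = -0.672. The part of low Malat1 in the level of Cebpg was not tested.

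**Figure D1:**
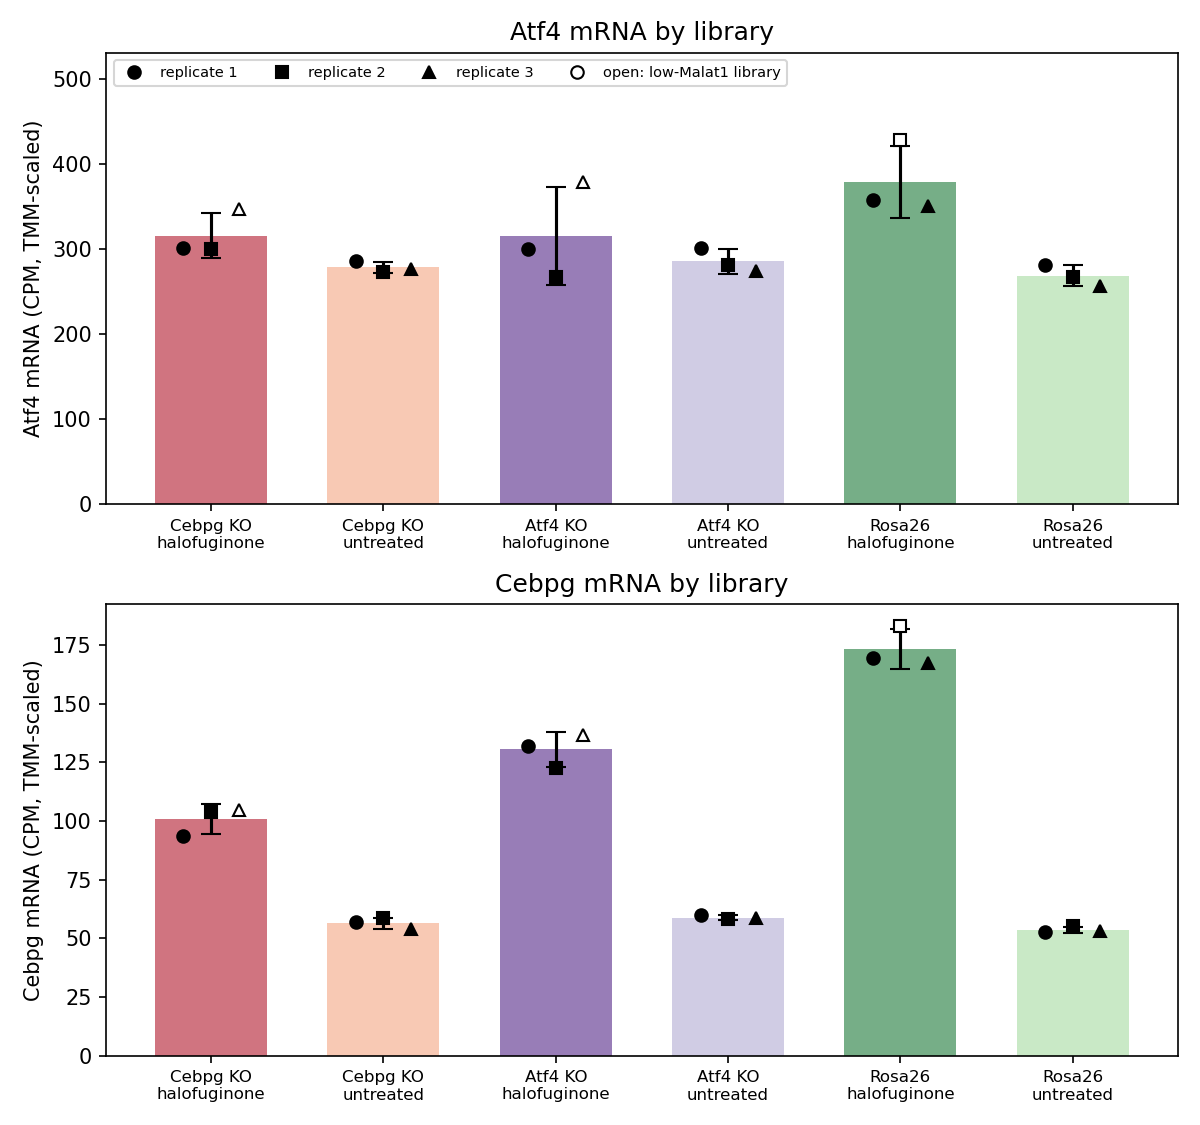
Atf4 (top) and Cebpg (bottom) mRNA in CPM by group: bars are means and error bars the SD of 3 libraries, points are single libraries and open points the 3 low-Malat1 libraries. Treated Cebpg groups average 101, 131 and 173 CPM in Cebpg KO, Atf4 KO and Rosa26 cells and lie apart, while for Atf4 treated Rosa26 cells average 379 CPM and treated Atf4 KO cells spread from 267 to 378 CPM.

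From low to high, the Atf4 means ran from Rosa26 untreated (268 ± 12.5 CPM; SD, n = 3 here and below) through Cebpg KO untreated (278 ± 6.57), Atf4 KO untreated (285 ± 14.4), Atf4 KO with halofuginone (315 ± 57.3) and Cebpg KO with halofuginone (315 ± 26.6) to Rosa26 with halofuginone (379 ± 42.8). In that order only the last step, from treated Cebpg KO to treated Rosa26 cells, separated neighbouring groups whose libraries did not overlap. Treated Atf4 KO cells, at up to 378 CPM, overlapped with treated Rosa26 cells, which began at 351 CPM. The Cebpg means ran from Rosa26 untreated (53.7 ± 1.28 CPM) through Cebpg KO untreated (56.4 ± 2.33) and Atf4 KO untreated (58.8 ± 0.890), which overlapped with their neighbours in that order, to Cebpg KO (101 ± 6.37), Atf4 KO (131 ± 7.29) and Rosa26 (173 ± 8.67) with halofuginone, each step without overlap. Atf4 varied more than Cebpg within 5 of the 6 groups, and less in untreated Cebpg KO cells (coefficient of variation 2.36% for Atf4 and 4.13% for Cebpg). Its coefficient of variation ran from 2.36% to 18.2%, where counting alone gives 1.23% to 1.48%, and that of Cebpg from 1.51% to 6.32%, where counting gives 1.81% to 3.30%. The spread of Atf4 within groups, 0.14 on the log2 scale, was larger than that of 88.4% of 645 genes within 1.5-fold of its level. For Cebpg the spread was 0.07, larger than that of 21.8% of 2203 such genes.

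Cebpg mRNA was higher with halofuginone in all 3 genotypes, and Atf4 mRNA passed the threshold in Rosa26 cells. The test was edgeR's quasi-likelihood test in 1 fit over the 18 libraries, with Benjamini-Hochberg adjustment over all genes and a threshold of 0.05. In Cebpg KO cells 1 of the 2 genes was called, against 51.0% of all genes: Cebpg rose by 0.84 on the log2 scale (95% interval 0.71 to 0.97, 1.78-fold, adjusted p = 7.4e-10), and Atf4 differed by 0.18 (interval -0.03 to 0.39, adjusted p = 0.15). In Atf4 KO cells, again 1 of 2 was called, against 49.6% of all genes. Cebpg rose by 1.15 (interval 1.02 to 1.28, 2.22-fold, adjusted p = 7.1e-12), and Atf4 differed by 0.14 (interval -0.07 to 0.36, adjusted p = 0.26). In Rosa26 cells both were called, against 47.7% of all genes. Cebpg rose by 1.69 (interval 1.56 to 1.82, 3.23-fold, adjusted p = 6.6e-14) and was the gene with the 17th smallest p of 14695, and 447 genes had a higher fold change. Atf4 rose by 0.50 (interval 0.28 to 0.71, 1.41-fold, adjusted p = 0.00047), with 3339 genes above it. About as many genes were called as not called in each genotype, so the share called among the members was near or above the background. Without the 3 low-Malat1 libraries the change of Atf4 was 0.15 (adjusted p = 0.0119) in Cebpg KO, 0.03 (adjusted p = 0.683) in Atf4 KO and 0.44 (adjusted p = 1.8e-10) in Rosa26 cells, and that of Cebpg was 0.84, 1.15 and 1.69. Of 16 alternative settings, 9 called Atf4 higher in Cebpg KO cells, at 0.15 to 0.29, and 3 in Atf4 KO cells, at 0.19 to 0.25, each count including the fit without halofuginone-treated replicate 2 of that knockout (0.24 and 0.25, adjusted p = 0.0486 and 0.0384).

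The next comparison set the 2 mRNAs of each knockout against Rosa26. In its own knockout the mRNA measured is the edited one. There, an effect of the editing on that mRNA and one of losing the factor cannot be told apart. Without the drug neither mRNA differed past the threshold. In untreated Cebpg KO cells 0 of 2 were called, against 5.0% of all genes, with Cebpg at 0.07 (interval -0.06 to 0.20, adjusted p = 0.498) and Atf4 at 0.05 (interval -0.16 to 0.27, adjusted p = 0.777) relative to Rosa26. In untreated Atf4 KO cells 0 of 2 were called, against 26.0% of all genes, with Cebpg at 0.13 (interval 0.00 to 0.26, adjusted p = 0.128) and Atf4 at 0.09 (interval -0.12 to 0.30, adjusted p = 0.549). The unadjusted p of Cebpg in Atf4 KO cells was 0.0479 in edgeR, the only such value under 0.05 here, and 4 alternative settings called it higher, at 0.14 to 0.23.

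With halofuginone, Cebpg mRNA was lower in both knockouts than in Rosa26 cells. In Cebpg KO cells 1 of 2 was called, against 18.9% of all genes: Cebpg fell by 0.78 (interval -0.91 to -0.66, 0.581-fold, adjusted p = 3.2e-08). It had the 24th smallest p of all genes, and 337 genes had a lower fold change. In Atf4 KO cells 1 of 2 was called, against 28.1% of all genes, and Cebpg fell by 0.41 (interval -0.53 to -0.28, 0.753-fold, adjusted p = 2.8e-05), with 2356 genes lower. Atf4 mRNA differed by -0.26 in Cebpg KO (interval -0.47 to -0.05, adjusted p = 0.0792) and by -0.26 in Atf4 KO cells (interval -0.48 to -0.05, adjusted p = 0.0587), both short of the threshold. Of 16 alternative settings, 3 called the value in Cebpg KO and 9 that in Atf4 KO cells. Without the low-Malat1 libraries the difference was -0.24 in Cebpg KO cells (adjusted p = 0.00083) and -0.31 in Atf4 KO cells (adjusted p = 9.8e-06), while Cebpg was at -0.77 and -0.39.

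Set against each other, the knockouts differed in Cebpg mRNA when treated. Without halofuginone 0 of 2 genes were called, against 3.32% of all genes, with Cebpg KO minus Atf4 KO at -0.06 for Cebpg (adjusted p = 0.765) and -0.04 for Atf4 (adjusted p = 0.941). With it 1 of 2 was called, against 1.00% of all genes, and Cebpg was lower in Cebpg KO than in Atf4 KO cells (log2 difference -0.37, interval -0.50 to -0.25, adjusted p = 0.00442). That call was lost when only these 2 groups were fitted (-0.36, adjusted p = 0.373) and without Cebpg KO with halofuginone replicate 1 (-0.32, adjusted p = 0.0504). Atf4 was at 0.00 (interval -0.21 to 0.21, adjusted p = 0.997) between the treated knockouts.

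The response to the drug was tested directly for differences between genotypes. For Cebpg KO minus Rosa26, 1 of 2 genes was called, against 2.47% of all genes: the response of Cebpg differed by -0.86 (interval -1.04 to -0.67, adjusted p = 6.7e-06), and that of Atf4 differed by -0.32 (interval -0.62 to -0.02, adjusted p = 0.335). For Atf4 KO minus Rosa26, 1 of 2 was called, against 6.42% of all genes. The response of Cebpg differed by -0.54 (interval -0.72 to -0.36, adjusted p = 0.000872), and that of Atf4 by -0.35 (interval -0.65 to -0.05, adjusted p = 0.165). For Cebpg KO minus Atf4 KO, 0 of 2 were called, against 0.0136% of all genes, where Cebpg differed by -0.31 (interval -0.50 to -0.13, unadjusted p = 0.00186, adjusted p = 0.369) and Atf4 by 0.04 (adjusted p = 0.977). Without the 3 low-Malat1 libraries the differences for Atf4 against Rosa26 passed the threshold, at -0.29 for Cebpg KO (adjusted p = 0.00585) and -0.41 for Atf4 KO (adjusted p = 3.7e-05). Those libraries were also the highest for Atf4 in each treated group. Leaving them out narrows the spread of Atf4, so these p-values are not separate support. The comparisons of the 2 knockouts with Rosa26 share the Rosa26 libraries.

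**Figure D2:**
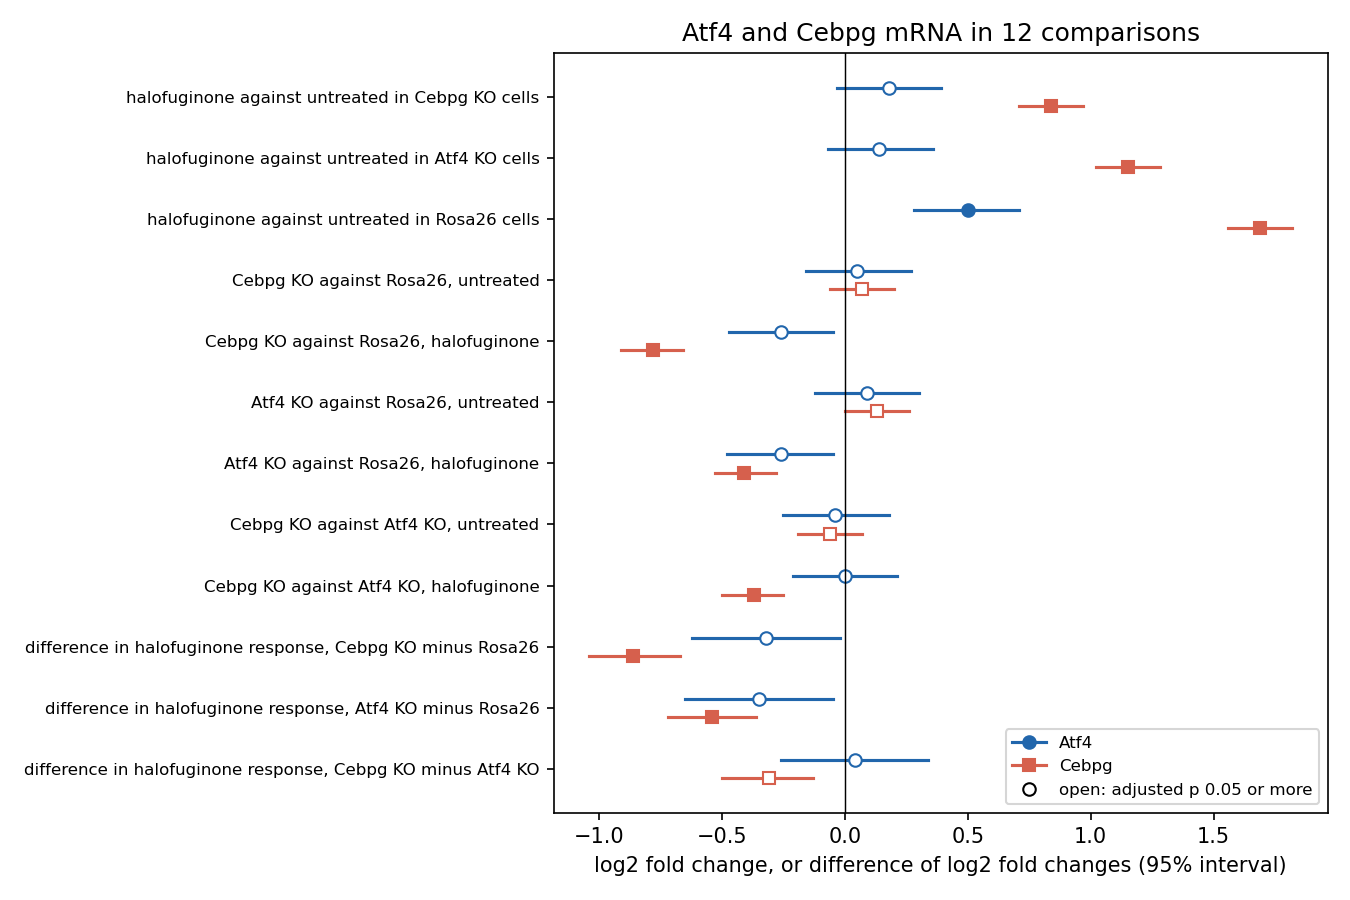
Log2 fold changes of Atf4 (circles) and Cebpg (squares), or differences of them for the last 3 lines, with 95% intervals; filled symbols passed an adjusted p of 0.05. The interval of Cebpg lies above 0 in all 3 drug responses and below 0 in both treated knockouts against Rosa26. The interval of Atf4 also lies below 0 in both treated knockouts and in both response differences against Rosa26. For Atf4 only the drug response in Rosa26 cells, 0.50, is filled.

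The 2 mRNAs were also compared within each library, where scaling cancels. The ratio of Cebpg to Atf4 counts per kb was 0.130, 0.146 and 0.127 in Cebpg KO cells with halofuginone (0.134 ± 0.00985) and 0.0834, 0.0900 and 0.0817 in untreated ones (0.0850 ± 0.00437). In Atf4 KO cells it was 0.185, 0.193 and 0.152 with halofuginone (0.176 ± 0.0218) and 0.0832, 0.0867 and 0.0901 untreated (0.0867 ± 0.00345). In Rosa26 cells it was 0.199, 0.180 and 0.2001 with halofuginone (0.193 ± 0.0115) and 0.0788, 0.0866 and 0.0867 untreated (0.0841 ± 0.00458). Atf4 mRNA thus exceeded Cebpg mRNA per kb in every library, and the ratio was higher with the drug in each genotype without overlap, by 0.66, 1.02 and 1.20 on the log2 scale in Cebpg KO, Atf4 KO and Rosa26 cells. Among treated groups, Cebpg KO lay below Rosa26 by a log2 difference of -0.52 and below Atf4 KO by -0.39, both without overlap, and Atf4 KO differed from Rosa26 by -0.14 with overlap. Exact two-sided permutation tests gave p = 0.1 for each comparison without overlap, the smallest that 3 against 3 libraries allow, and p = 0.3 for Atf4 KO against Rosa26 with the drug. The lowest ratio of each treated group belonged to its low-Malat1 library.

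**Figure D3:**
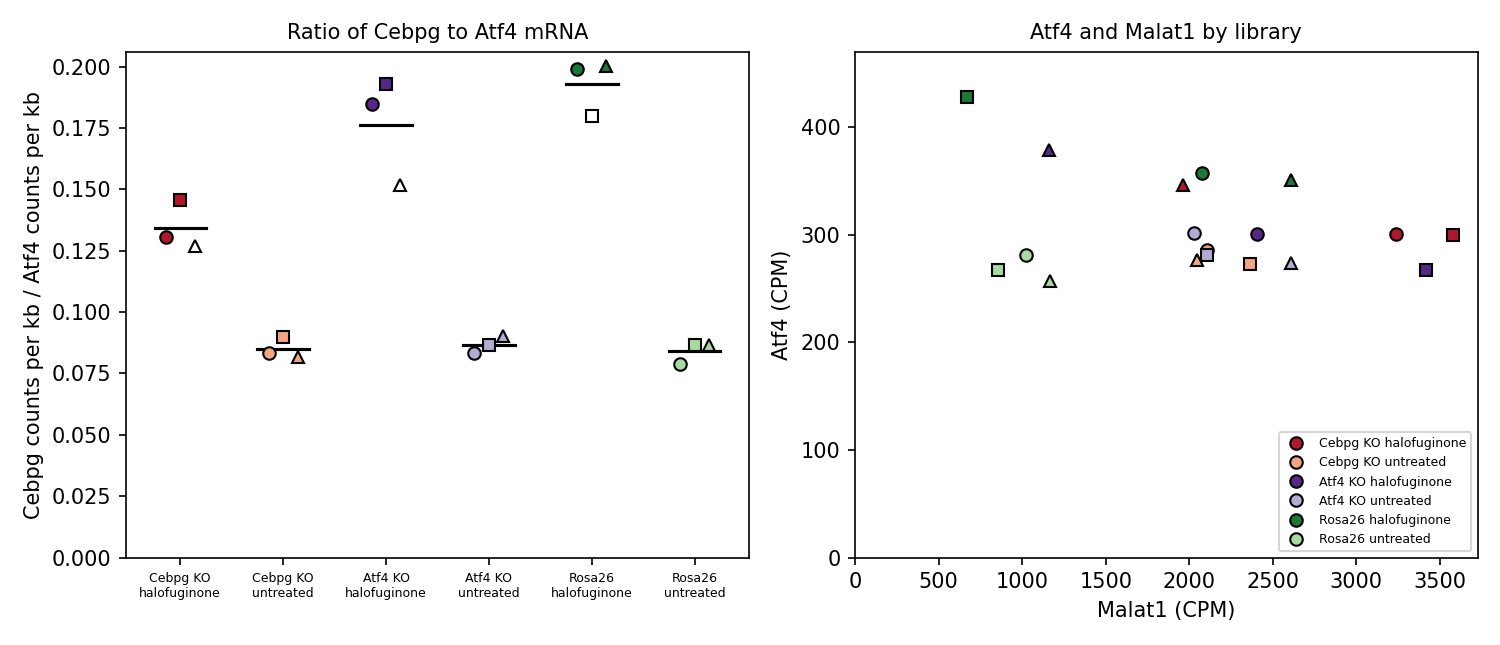
Left, Cebpg counts per kb over Atf4 counts per kb in each library by group, with the mean as a line and the 3 low-Malat1 libraries open; right, Atf4 against Malat1, both in CPM, for the 18 libraries. The ratio is 0.127 or more in treated and 0.0901 or less in untreated libraries, and in each treated group the library lowest in Malat1 is highest in Atf4.

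Genes with the pattern most like each member were found by Pearson's r of log2 CPM over the 18 libraries, which share their depth and scaling. They were chosen on these same data, so a like order of groups follows from the choice. For Atf4 they were Vasp, an actin-binding protein (r = 0.944), and the ribosomal protein genes Rpl13 (0.940), Rps6 (0.938), Rps16 (0.937) and Rpl4 (0.934), and 17 genes reached 0.9. Rpl4, for example, averaged 3234 ± 360.1 CPM with halofuginone and 2594 ± 58.8 CPM untreated in Cebpg KO cells, 3474 ± 641 and 2801 ± 116 CPM in Atf4 KO cells, and 3781 ± 515 and 2772 ± 73.9 CPM in Rosa26 cells. Rpl13 ran from 1968 to 3194 CPM within treated Atf4 KO cells, so r also reflects spread within groups. None of these genes was called in either treated knockout against Rosa26. For Rpl13 edgeR gave adjusted p = 0.309 in Cebpg KO and 0.547 in Atf4 KO cells. Shared regulation with Atf4 was not tested. Ribosomal protein counts may share reads with pseudogenes. For Cebpg they included Sft2d2, a membrane protein of vesicle transport (r = 0.980), the leukocyte tetraspanin Cd53 (0.979), the signalling adaptor Gab2 (0.973) and Lratd2 (0.970), and 121 genes reached 0.9. Gab2 averaged 4.78 ± 0.704 CPM with halofuginone and 2.49 ± 0.335 CPM untreated in Cebpg KO cells, 6.29 ± 0.711 and 2.51 ± 0.479 CPM in Atf4 KO cells, and 11 ± 1.37 and 1.82 ± 0.305 CPM in Rosa26 cells, the same order of treated groups as Cebpg. Atf4 and Cebpg correlated with each other at r = 0.799. Over the 6 group means r was 0.94, and for deviations within groups it was 0.68. Over the 18 libraries 1137 genes lay closer to Cebpg than Atf4 did, and 159 lay closer to Atf4 than Cebpg did.

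**Figure D4:**
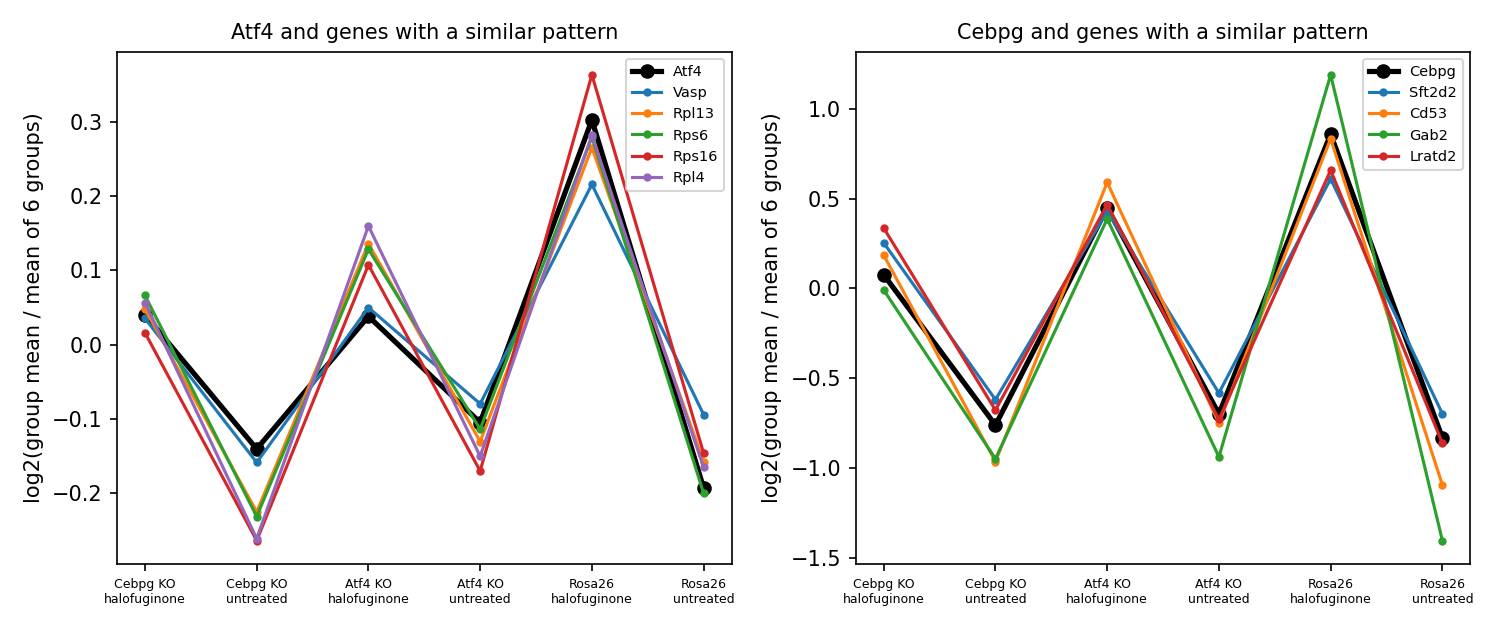
Group means of Atf4 (left) and Cebpg (right) and of the genes named beside each for a high Pearson r, as log2 of the mean over the average of the 6 groups. All 6 genes of the Atf4 panel are highest in treated Rosa26 cells, and in the Cebpg panel all 5 genes drawn are ordered Cebpg KO, Atf4 KO, Rosa26 from low to high among the treated groups. The genes were chosen for their likeness on these data, so the shared order is not a separate result.

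Genes next to the targeted loci were read for changes in their own knockout. Cacna1i, a T-type calcium channel gene that begins 29.7 kb downstream of Atf4 on the same strand (chromosome 15, 80287238 to 80398279, GRCm38), had 217, 335 and 213 counts in Atf4 KO libraries with halofuginone and 141, 146 and 136 in untreated ones. In the other 12 libraries it had 0 to 7 counts, and 0 in all treated Cebpg KO and Rosa26 libraries. It rose in Atf4 KO against Rosa26 cells with (adjusted p = 8e-07) and without the drug (adjusted p = 2.1e-05). Of the genes closer to Atf4, Mief1, a mitochondrial fission factor gene 1.8 kb upstream, differed by -0.06 in both comparisons (adjusted p = 0.646 with and 0.582 without the drug), and Rps19bp1, 3.1 kb downstream on the other strand, fell by 0.48 without (adjusted p = 0.00368) and differed by -0.26 with the drug (adjusted p = 0.0981). Mgat3, a glycosyltransferase gene 39.7 kb upstream, had 19, 15 and 13 counts in Atf4 KO libraries with halofuginone and 1, 5 and 4 in untreated ones, and 4 to 9 in the other 12. It rose with the drug in Atf4 KO cells (2.18, adjusted p = 0.00137) and was at 0.04 in Rosa26 cells (adjusted p = 0.973), but the difference of these responses (2.14, adjusted p = 0.0864) and treated Atf4 KO against Rosa26 (1.17, adjusted p = 0.0648) did not pass. Next to Cebpg, the peptidase gene Pepd, 1.7 kb away on the other strand, was not called in treated (-0.28, adjusted p = 0.089) or untreated Cebpg KO cells (-0.07, adjusted p = 0.723).

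The same-strand transcripts Gm44836 and Gm45094 lie inside the Cebpg gene, where reads of unspliced Cebpg RNA cannot be told apart from them. In Rosa26 cells they had 49, 16 and 62, and 83, 11 and 65 counts with halofuginone, against 9, 12 and 14, and 16, 13 and 21 counts untreated (log2 fold changes 1.81, adjusted p = 0.00327, and 1.58, adjusted p = 0.0147). The low value of each treated set is from the low-Malat1 library. In Cebpg KO cells they were not called, at 0.74 (adjusted p = 0.188) and 0.51 (adjusted p = 0.421), nor in Atf4 KO cells, at 0.21 (adjusted p = 0.738) and 0.68 (adjusted p = 0.274).

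Genes that control synthesis and stability of ATF4 were mostly lower or not called in treated knockouts. Of 22 listed and measured, 1 rose and 10 fell in treated Cebpg KO against Rosa26 cells, where 5.74% of all genes rose and 13.1% fell, with a list median of -0.21 against -0.02 over all genes. In treated Atf4 KO cells 1 rose and 12 fell, where 11.8% of all genes rose and 16.3% fell, with a median of -0.23 against 0.00. Fitting only the groups compared gave 5 and 6 that fell in Cebpg KO and Atf4 KO cells. Leaving out Cebpg KO with halofuginone replicate 1 or 2 or Rosa26 with halofuginone replicate 2 gave 5, 6 and 5 in Cebpg KO cells. The shares of all genes above are those of the main fit. Calls over all genes also moved with the setting, so a change particular to this list cannot be told apart. The gene that rose was Eif2ak3, which encodes the endoplasmic reticulum kinase PERK, at 121 ± 4.51 CPM in Cebpg KO, 154 ± 2.48 CPM in Atf4 KO and 93.1 ± 7.0 CPM in Rosa26 cells, or 0.37 (adjusted p = 0.000146) and 0.73 (adjusted p = 1.9e-08) above Rosa26. Its level was 46.3 ± 1.38, 60.4 ± 1.37 and 41.8 ± 1.65 CPM in the same genotypes untreated. Eif2ak4, the kinase GCN2 that senses uncharged tRNA, was not called, at 0.07 (adjusted p = 0.662) in Cebpg KO and 0.11 (adjusted p = 0.465) in Atf4 KO cells. Its coactivator Gcn1 fell by 0.16 (adjusted p = 0.0391) and 0.15 (adjusted p = 0.0313) in the same order. The heme-regulated kinase gene Eif2ak1 was not called (-0.14 and -0.09, adjusted p = 0.216 and 0.423), and the double-stranded RNA kinase gene Eif2ak2 fell in Atf4 KO cells by 0.60 (adjusted p = 0.000276) with -0.12 in Cebpg KO cells (adjusted p = 0.475). Egln3, a prolyl hydroxylase described as destabilising ATF4, fell by 0.60 in Cebpg KO (adjusted p = 0.000226) and 0.58 in Atf4 KO cells (adjusted p = 0.000122), and Eif2s2, the beta subunit of eIF2, fell by 0.47 (adjusted p = 0.000949) and 0.54 (adjusted p = 0.000106).

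Without the drug, 1 of these 22 genes rose and 3 fell in Cebpg KO against Rosa26 cells, where 2.71% of all genes rose and 2.29% fell. Those were Impact (0.42, adjusted p = 0.0285), an inhibitor of GCN2 activation, and Egln1 (-0.36, adjusted p = 0.0209), Egln3 (-0.41, adjusted p = 0.0152) and Eif2b5 (-0.25, adjusted p = 0.047), of which all but Egln3 were named after their values were seen. In untreated Atf4 KO cells 3 rose and 11 fell, where 11.7% of all genes rose and 14.3% fell. The 3 were Eif2ak3 (0.53, adjusted p = 5.1e-06), Impact (0.36, adjusted p = 0.0167) and the ubiquitin ligase subunit gene Btrc (0.37, adjusted p = 0.0418).

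The other bZIP genes moved in both directions, and 35 of 40 were measured. In treated Cebpg KO cells 5 rose and 9 fell, 14.3% and 25.7% of the list against 5.74% and 13.1% of all genes, with a median of -0.03 against -0.02. In treated Atf4 KO cells 7 rose and 12 fell, 20.0% and 34.3% of the list against 11.8% and 16.3% of all genes, with a median of -0.13 against 0.00. Atf5, a stress-responsive relative of Atf4, averaged 24.8 ± 1.42 CPM in treated Cebpg KO, 34.2 ± 5.59 CPM in treated Atf4 KO and 100.3 ± 14.6 CPM in treated Rosa26 cells, a fall of 2.01 (adjusted p = 7.5e-09) and 1.55 (adjusted p = 4.9e-08). Cebpb, which encodes a C/EBP factor that can pair with C/EBPγ, averaged 29.2 ± 3.22, 32.5 ± 7.5 and 73.0 ± 6.38 CPM in the same groups and fell by 1.33 (adjusted p = 2.9e-07) and 1.17 (adjusted p = 3.8e-07). Nfe2l1, a regulator of proteasome genes, fell by 0.70 (adjusted p = 1.3e-06) and 0.61 (adjusted p = 2e-06). Fosl2, an AP-1 subunit, rose by 0.41 (adjusted p = 0.00171) and 0.87 (adjusted p = 2.3e-07). The other members that rose in treated Cebpg KO cells, named after their values were seen, were Bach2 (0.43, adjusted p = 0.000575), Crem (0.35, adjusted p = 0.00756), Tef (0.27, adjusted p = 0.0376) and Creb1 (0.19, adjusted p = 0.0106). Ddit3, which encodes CHOP, was called in neither treated knockout (-0.43, adjusted p = 0.126, in Cebpg KO and -0.32, adjusted p = 0.218, in Atf4 KO), and Atf3 was at 3.17 ± 0.227, 1.71 ± 0.432 and 3.74 ± 0.582 CPM in treated Cebpg KO, Atf4 KO and Rosa26 cells (-0.24, adjusted p = 0.64, and -1.13, adjusted p = 0.0141). Untreated, 1 rose (Bach2, 0.45, adjusted p = 0.00566) and 2 fell (Batf, -0.55, adjusted p = 0.00649, and Atf1, -0.24, adjusted p = 0.0477) in Cebpg KO cells, and 5 rose and 11 fell in Atf4 KO cells. The shares that rose, 2.86% in Cebpg KO and 14.3% in Atf4 KO cells, were near the 2.71% and 11.7% of all genes, and those that fell were 5.71% and 31.4%, against 2.29% and 14.3% of all genes.

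Genes described as targets of ATF4 and C/EBP factors were lower in both knockouts when treated. Atf5, Atf3 and Ddit3 are also members of the bZIP list above, so they are counted in both lists. Of 44 listed genes, 40 were measured; 0 rose and 36 fell in treated Cebpg KO cells, where 13.1% of all genes fell (median -0.77 against -0.02). In treated Atf4 KO cells 0 rose and 38 fell, where 16.3% of all genes fell (median -1.10 against 0.00). Asns, asparagine synthetase, averaged 29.9 ± 2.38 CPM in treated Cebpg KO, 21.5 ± 2.04 CPM in treated Atf4 KO and 86.8 ± 7.09 CPM in treated Rosa26 cells, falls of 1.54 (adjusted p = 3.1e-10) and 2.01 (adjusted p = 1.3e-11). Psat1, of serine synthesis, was lower in the same order, with log2 fold changes of -1.18 (adjusted p = 5.2e-10) and -1.52 (adjusted p = 1.3e-11). For Mthfd2, of mitochondrial folate metabolism, they were -1.06 (adjusted p = 2.1e-10) and -1.28 (adjusted p = 1.3e-11). Members not called were Ddit3 and Ddit4 in both knockouts, and Atf3 and Nupr1 in Cebpg KO cells alone, named after their values were seen; Ddit4, an inhibitor of mTORC1 signalling, was at -0.02 (adjusted p = 0.93) and 0.18 (adjusted p = 0.424). Nupr1, a stress-responsive chromatin protein gene of at most 2.48 CPM, was at -0.28 in Cebpg KO (adjusted p = 0.615) and fell by 2.45 in Atf4 KO cells (adjusted p = 9.5e-05).

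Untreated, 2 of the same genes rose and 8 fell in Cebpg KO cells, where 2.71% of all genes rose and 2.29% fell (median -0.14 against 0.01). In untreated Atf4 KO cells 1 rose and 30 fell, where 11.7% of all genes rose and 14.3% fell (median -0.49 against 0.02). Over all genes, too, fewer were called in untreated Cebpg KO (735) than in untreated Atf4 KO cells (3827). Those that rose in Cebpg KO cells were the amino acid transporter genes Slc1a4 (0.58, adjusted p = 0.0152) and Slc38a2 (0.21, adjusted p = 0.0346), and Ddit3 rose in Atf4 KO cells (0.76, adjusted p = 0.0228), all 3 named here after their values were seen. Slc1a4 stood at 11.4 ± 0.216 CPM in untreated Cebpg KO, 4.60 ± 1.02 CPM in untreated Atf4 KO and 7.61 ± 0.638 CPM in untreated Rosa26 cells, and with the drug at 19.8 ± 2.23, 13.8 ± 1.31 and 37.2 ± 2.39 CPM. Asns fell by 0.74 (adjusted p = 0.000179) in untreated Cebpg KO and by 1.01 (adjusted p = 2.7e-07) in untreated Atf4 KO cells. In treated cells, the fit without the 3 low-Malat1 libraries had 36 and 37 targets that fell in Cebpg KO and Atf4 KO cells. The shares of all genes that fell in that fit are not given here, so these counts have no background beside them.

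**Figure D5:**
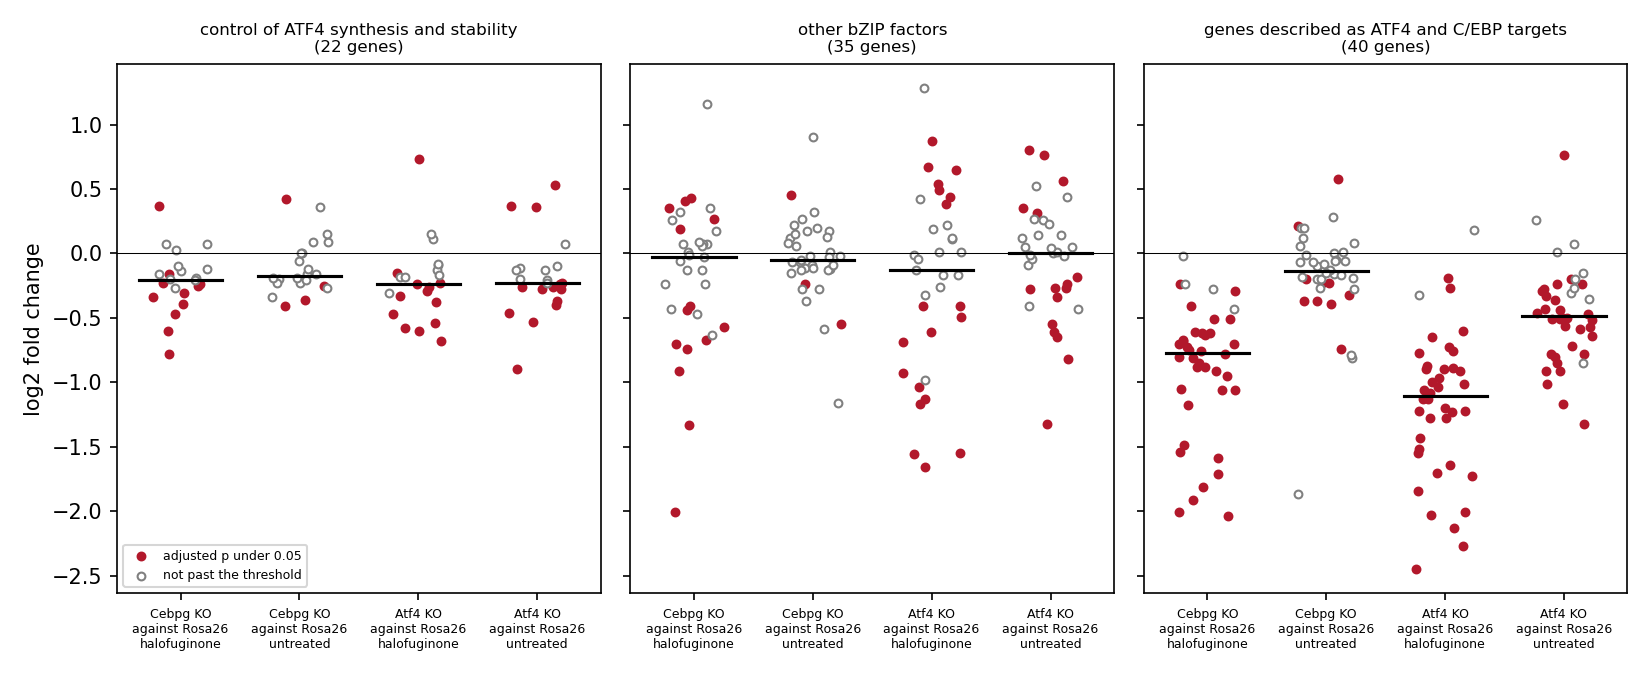
Log2 fold changes of each measured gene of the 3 lists in the knockouts against Rosa26, with and without halofuginone; red points passed an adjusted p of 0.05, open points did not, and lines are medians. The medians of the target list are -0.77, -0.14, -1.10 and -0.49 from left to right, and those of the other lists lie between -0.23 and 0.00.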

How the data were processed

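Poly-A RNA was made into directional dUTP libraries, per the labels' protocols. The authors deposited raw counts per gene in a single table, and per the submitters' processing notes the tools were FastQC, MultiQC, Trimmomatic, STAR, HTSeq and edgeR on GRCm39; the sources used here give no versions, annotation release or strand setting. Of 14695 rows, 449 had no gene name, and 431 were named from their gene IDs. All 18 libraries entered 1 quasi-likelihood fit in edgeR 4.0.16 (R 4.3.3, TMM scaling, robust, 6 group terms) with 12 comparisons, each adjusted by Benjamini-Hochberg over 14695 genes at 0.05. The step was tested on simulated data with changes set in treated Rosa26 cells alone. That test covered only some of the 12 comparisons and is not support for the results here. Alternatives used limma 3.58.1, DESeq2 1.42.0, other scalings, filters and subsets of libraries. Ratios were tested by exact permutation. Python 3.11.15 computed the descriptions.

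Genes named were the members, the 5 genes most correlated with each, neighbours within 50.0 kb, the eIF2 kinases and other main regulators, the 3 genes of each list with the smallest p in either treated knockout against Rosa26, which are not always those with the largest change, and members of a list where 5 or fewer were counted; 1 gene correlated with Cebpg is not reported here. The members and lists were chosen with earlier results of these data known. No pairing of libraries by replicate number was detected, and the check could not exclude it. GENCODE M21 and RefSeq on GRCm38 served for annotation and sequences only.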

Additional observations from a re-analysis of the deposited data

Results flagged for a closer look

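The response of Cebpg mRNA to halofuginone differed between genotypes by edgeR's test of the difference itself. It was -0.86 on the log2 scale for Cebpg KO minus Rosa26 (adjusted p = 6.7e-06) and -0.54 for Atf4 KO minus Rosa26 (adjusted p = 0.000872). Both comparisons share the Rosa26 libraries. In Cebpg KO cells Cebpg mRNA is itself the edited one. An effect of the editing on that mRNA and one of losing the factor cannot be told apart there.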

How the results depend on the processing

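Cebpg kept its direction and call under every alternative run for the drug response in each genotype, for both treated knockouts against Rosa26 and for both response differences against Rosa26, and Atf4 did so for the drug response in Rosa26 cells (0.43 to 0.56, and 0.39 to 0.55 leaving out 1 library). Over all settings, 374 of 420 values for the 2 genes kept direction and call, 37 passed the threshold only under the alternative, 2 lost it and 7 changed sign. The edgeR filter filterByExpr kept all 14695 genes and so repeated the main fit. Its agreement, here and in every count of alternative settings, was fixed in advance. The cause of each change was not tested.

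Atf4 with halofuginone in Cebpg KO cells (0.18) passed at 0.23 under RLE scaling, 0.29 under upper-quartile scaling, 0.26 under total counts alone, 0.23 in DESeq2, 0.15 in limma voom, 0.27 with genes of mean 5.0 CPM or more, 0.25 with only the groups compared and 0.15 without the 3 low-Malat1 libraries; leaving out 1 library gave 0.11 to 0.24. In Atf4 KO cells (0.14) it passed at 0.20 under upper-quartile scaling and 0.19 with the 5.0 CPM filter, and leaving out 1 library gave 0.04 to 0.25. In treated Atf4 KO against Rosa26 (-0.26) Atf4 passed at -0.24 under RLE and in DESeq2, -0.21 under upper-quartile scaling and total counts, -0.27 in voom, -0.23 with the filter and -0.31 without the 3 libraries, with -0.38 to -0.16 leaving out 1. It passed without Atf4 KO with halofuginone replicate 3 (-0.38, adjusted p = 0.000147) and without Rosa26 with halofuginone replicate 3 (-0.32, adjusted p = 0.0449). In treated Cebpg KO against Rosa26 (-0.26) it passed at -0.22 in voom and -0.24 without the 3, with -0.34 to -0.16 leaving out 1, and passed without Cebpg KO with halofuginone replicate 3 (-0.34, adjusted p = 0.0378). The response difference for Atf4, Atf4 KO minus Rosa26, passed at -0.37 under upper-quartile scaling and with the filter, -0.39 under total counts, -0.36 in voom and -0.41 without the 3, with -0.43 to -0.24 leaving out 1 (-0.43, adjusted p = 0.00449, without Atf4 KO with halofuginone replicate 3). For Cebpg KO minus Rosa26 it passed at -0.29 without the 3. Untreated Atf4 KO against Rosa26 passed for Atf4 at 0.18 under total counts, where the median of all genes was 0.115 against 0.018, and for Cebpg at 0.21 under upper-quartile scaling, 0.23 under total counts, 0.18 with the filter and 0.14 without the 3.

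Cebpg in treated Cebpg KO against Atf4 KO lost its call with only those groups (-0.36, adjusted p = 0.373), and leaving out 1 library gave -0.42 to -0.32. Its response difference, Cebpg KO minus Atf4 KO, passed in voom (-0.32, adjusted p = 0.0381). Sign changes were those of Atf4 near 0 between the knockouts: untreated -0.06 to 0.01 (0.0058), treated -0.10 to 0.15 and response difference -0.07 to 0.18 leaving out 1 library.

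The replicate block changed no call of either gene (Cebpg in treated Cebpg KO against Rosa26, -0.78), and no pairing by number was detected. Same-numbered libraries of different groups correlated at -0.781 to 0.661, and differently numbered ones at -0.662 to 0.814. The low-Malat1 libraries do not carry the same number in every group, so this check cannot exclude pairing. Counts of called genes moved by over 1.5 times in 68 of 210 cases. Against Rosa26 they were 735 (203 to 4113) in untreated and 2773 (1775 to 3642) in treated Cebpg KO cells, and 3827 (2756 to 6158) in untreated and 4128 (2373 to 6159) in treated Atf4 KO cells. Between the knockouts they were 488 (160 to 1955) untreated and 147 (1 to 1313) treated, where the block gave 90. For response differences they were 363 (210 to 1104) for Cebpg KO minus Rosa26, 943 (617 to 2833) for Atf4 KO minus Rosa26 and 2 (1 to 118) for Cebpg KO minus Atf4 KO. Library depth, 14.2 to 20.3 M counts, left counting error of 1.23% to 3.30% on the 2 genes.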
